A study of Mus musculus with 9 samples.

Results

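The 10 genes described here encode the core proteins of planar cell polarity: Vangl1, Vangl2, Prickle1, Prickle2, Prickle3, Celsr1, Celsr2, Celsr3, Ptk7 and Scrib. They were taken by symbol from the 35896 genes to which the deposited transcripts could be assigned, and all 10 passed the filter on low counts. Prickle1 was selected on its measured counts, which were lower with CK666 than in the withdrawn control, so the comparison of CK666 with its control is given below as a description, with no test. The cells were E14, a single line of mouse embryonic stem cells, grown on gelatin in medium with serum, and poly-A RNA was sequenced from 9 cultures in 3 groups of 3. Control +LIF2i cells were kept in self-renewal medium with the cytokine LIF, the MEK inhibitor PD0325901 (1 µM) and the GSK3β inhibitor CHIR99021 (1 µM). Control 72h -LIF2i cells had all of these removed for 72 h. CK666 72h -LIF2i cells were treated in the same way, with 80 µM CK666 present from the removal onward. CK666 is a small molecule that blocks the Arp2/3 complex, the nucleator of branched actin. CK666 was dissolved in DMSO, and the labels do not say that control cultures received the solvent, so the drug and its solvent cannot be told apart.

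Planar cell polarity orients cells within the plane of a tissue. In its core, the atypical cadherin CELSR bridges neighbouring cells, a Frizzled receptor with Dishevelled gathers on one side of each cell, and VANGL with PRICKLE gathers on the opposite side. PTK7, a pseudokinase receptor, and SCRIB, a scaffold of the basolateral membrane, act with VANGL. In mouse embryos the pathway is known for the narrowing and lengthening of the body axis, for neural tube closure and for the orientation of hair cells.

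The libraries held 16894327 to 22550952 estimated counts, and 3 counts, taken as the detection floor, corresponded to 0.142 to 0.182 CPM, that is, counts scaled to a common effective library total. Replicate 1 of every group stood apart, with 15637 to 17551 genes above 0 against 18080 to 18636 in replicates 2 and 3, and each group held 1 such library. Summed TPM, a level corrected for transcript length, of 7 pluripotent cell markers such as Pou5f1 and Nanog was 3473 to 4455 in Control +LIF2i, 1473 to 1868 in Control 72h -LIF2i and 1666 to 1912 in CK666 72h -LIF2i. That of 4 formative epiblast markers was 45.2 to 69.4, 401 to 1133 and 231 to 755 in the same order, led by Otx2 in 3 libraries and by Dnmt3b in 6. Dnmt3b was at 16.1 to 31.1, 263 to 934 and 161 to 631 TPM. Fgf5 of that list was at 0 to 0.036, 26.5 to 40.5 and 1.72 to 9.36 TPM. Early neural markers, led by Nes in 9 of 9 libraries, summed to 15.9 to 23.6, 35.4 to 53.5 and 19.6 to 39.4 TPM. Their members differed in direction: on withdrawal the log2 fold changes were 1.34 for Nes, -1.36 for Sox1, 1.17 for Pax6 and 1.22 for Zic1. For CK666 against the withdrawn control they were -1.24 for Nes, 1.27 for Sox1, 1.47 for Pax6 and 1.64 for Zic1. Primitive streak and mesoderm markers, led by Eomes in 9 of 9 libraries, summed to 3.85 to 8.31, 4.51 to 9.70 and 2.30 to 4.82 TPM. Fibroblast markers, led by Thy1 in 8 of 9 libraries and by Pdgfrb in 1, summed to 6.18 to 13.4, 24.6 to 32.3 and 15.2 to 23.7 TPM. Means of Thy1 were 4.87, 23.0 and 15.6 TPM in the same order. Pdgfrb went the other way on withdrawal, with means of 3.48, 1.98 and 1.43 TPM. Means of Col1a1, Col1a2 and Col3a1 were at most 1.07 TPM. Trophoblast markers, led by Krt8 in 9 of 9 libraries, summed to 11.7 to 43.3, 50.1 to 120 and 35.9 to 89.1 TPM. Nearly all of that sum was Krt8, with means of 22.4, 82.9 and 57.8 TPM. Group means of Cdx2, Elf5 and Hand1 were at most 0.907 TPM. Primitive endoderm markers summed to 3.90 to 5.08, 3.16 to 8.29 and 4.94 to 9.62 TPM. Several of these sums move with the groups, and their part in the results below was not tested. In bulk RNA, fewer cells that express a gene and less RNA per cell cannot be told apart.

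The start regions of Prickle1 and Prickle2 are shown first, because the estimated division of their reads among different starts differed between the groups. Both genes lie on the minus strand of GRCm38, Prickle1 at chr15:93499114-93595891 and Prickle2 at chr6:92370908-92706155. The inner start of Prickle1 lies 76368 bases downstream of the outer one, and the outermost start of Prickle2 lies 138789 bases upstream of the next. The 250 bases upstream of each start, from RefSeq on GRCm38.p6, are printed 5′ to 3′ on the strand of the gene, with CG dinucleotides in capitals. The first is that of Prickle1-201 (outer start), at chr15:93595903-93596152. The second is that of Prickle1-202 (inner start), at chr15:93519521-93519770. The third is that of Prickle2-201 (outermost start), at chr6:92706185-92706434. The fourth is that of Prickle2-204 (the next start), at chr6:92567367-92567616.
Prickle1-201: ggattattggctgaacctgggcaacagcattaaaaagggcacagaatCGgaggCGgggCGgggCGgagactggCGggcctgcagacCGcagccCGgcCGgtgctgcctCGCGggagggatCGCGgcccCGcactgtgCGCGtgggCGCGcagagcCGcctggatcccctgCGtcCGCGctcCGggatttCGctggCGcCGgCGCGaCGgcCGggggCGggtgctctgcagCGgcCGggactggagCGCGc
Prickle1-202: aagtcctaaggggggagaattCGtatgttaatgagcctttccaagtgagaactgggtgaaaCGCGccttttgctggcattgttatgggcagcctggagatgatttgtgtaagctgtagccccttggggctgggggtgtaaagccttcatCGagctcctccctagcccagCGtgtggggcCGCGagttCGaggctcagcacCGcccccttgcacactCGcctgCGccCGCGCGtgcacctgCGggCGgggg
Prickle2-201: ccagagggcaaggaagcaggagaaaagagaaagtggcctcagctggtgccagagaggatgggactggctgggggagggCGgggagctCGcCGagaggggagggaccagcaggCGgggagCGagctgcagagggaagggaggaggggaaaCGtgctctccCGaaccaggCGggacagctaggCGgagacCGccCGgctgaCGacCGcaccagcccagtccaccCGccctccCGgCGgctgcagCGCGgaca
Prickle2-204: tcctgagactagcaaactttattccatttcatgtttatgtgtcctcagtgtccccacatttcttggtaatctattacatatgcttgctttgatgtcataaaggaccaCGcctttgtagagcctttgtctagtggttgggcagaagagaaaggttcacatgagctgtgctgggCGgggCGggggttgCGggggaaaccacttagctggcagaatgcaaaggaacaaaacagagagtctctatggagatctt
The outer Prickle1 window held 34 CG dinucleotides, more than 96.5% of all 32851 RefSeq windows of this length, and the inner one held 16, more than 74.6% of them. The outermost Prickle2 window held 18 CG dinucleotides, more than 78.3% of windows, and the next one 4, more than 37.8%. The median window held 6. On both strands, the letters GGGCGG were in each of these 4 windows and in 32.7% of all windows, CCAAT was in the outer Prickle1 window and in 33.8% of all, and TATAAA was in none of the 4 and in 12.4% of all. A match is a description of these letters, not of a bound site.

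VANGL1 and VANGL2 are paralogous membrane proteins that bind PRICKLE. Vangl1 fell on withdrawal while Vangl2 did not pass the test. Vangl1 (chr3:102153583-102204693, minus strand) was at 56.1, 52.4 and 50.1 CPM in Control +LIF2i, in the order of replicates 1 to 3. It was at 14.6, 23.3 and 19.5 CPM in Control 72h -LIF2i and at 15.4, 18.9 and 18.6 CPM in CK666 72h -LIF2i. All 3 self-renewal libraries lay above all 6 others, and the 2 groups without LIF2i overlapped. The withdrawal fold change (Control 72h -LIF2i minus Control +LIF2i) was -1.49 on the log2 scale (SE 0.17, edgeR adjusted p = 0.00017, lower in 3 of 3 pairs). For CK666 72h -LIF2i minus Control +LIF2i it was -1.60 (SE 0.17, edgeR adjusted p = 0.00013, 3 of 3 pairs).

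Vangl2 (chr1:172000960-172028444, minus strand), the paralog whose loss is known to leave the neural tube open, did not pass the test in either comparison with self-renewal. Its CPM values were 45.8, 57.1 and 57.5 in Control +LIF2i, 52.3, 50.4 and 56.2 in Control 72h -LIF2i, and 61.6, 45.9 and 56.5 in CK666 72h -LIF2i. The 3 groups overlapped. Its withdrawal fold change was -0.02 on the log2 scale (SE 0.15, edgeR adjusted p = 0.945), and that from self-renewal to CK666 was 0.03 (SE 0.15, edgeR adjusted p = 0.898). The direction of the withdrawal value was not stable, since a length correction gave 0.20 and TPM values gave 0.22. In TPM, Vangl1 was 79.2% ± 4.19 (SD, n = 3) of the Vangl sum in Control +LIF2i, 44.0% ± 11.7 in Control 72h -LIF2i and 49.5% ± 9.74 in CK666 72h -LIF2i. By CPM, without the length correction, the Vangl1 shares were 49.8%, 26.4% and 24.7%. A short retained-intron transcript, Vangl1-204, weighs on the TPM value, with 135, 323 and 230 estimated counts in Control +LIF2i. It had 25, 69 and 49 in Control 72h -LIF2i and 77, 68 and 48 in CK666 72h -LIF2i.

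PRICKLE proteins are cytoplasmic LIM-domain proteins recruited by VANGL, and their 3 genes moved in different directions on withdrawal. Prickle1 was at 1.96, 1.36 and 1.27 CPM in Control +LIF2i and at 25.6, 20.0 and 14.0 CPM in Control 72h -LIF2i. With CK666 it was at 3.41, 2.32 and 4.80 CPM. No 2 of the 3 groups overlapped, with self-renewal lowest, CK666 between and the withdrawn control highest. As a description, the log2 fold change was 3.69 (SE 0.35) on withdrawal and -2.49 (SE 0.33) for CK666 72h -LIF2i minus Control 72h -LIF2i, each in 3 of 3 pairs. Over the alternatives the latter ran from -3.00 to -2.11. CK666 72h -LIF2i minus Control +LIF2i gave 1.20 (SE 0.34), higher in 3 of 3 pairs. All comparisons of Prickle1 share libraries with the comparison that chose it, so no p is given for them. Prickle1 is left out of the counts of genes that passed, except in the closing section on processing, where they are read for no support.

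Prickle2 was at 35.5, 11.7 and 11.4 CPM in Control +LIF2i, at 16.1, 7.21 and 7.06 CPM in Control 72h -LIF2i, and at 13.0, 9.00 and 10.9 CPM in CK666 72h -LIF2i. Replicate 1 was the highest of its group in all 3 groups, and the groups overlapped, although every withdrawn control lay below its same-numbered partner. Prickle2 fell on withdrawal by 0.87 on the log2 scale (SE 0.26, edgeR adjusted p = 0.024). This call was lost with no replicate block (-0.95, adjusted p = 0.206) and without any of 4 single libraries. Without Control +LIF2i replicate 1 the value was -0.53 (adjusted p = 0.114). Without replicate 1, 2 or 3 of Control 72h -LIF2i, the Prickle2 values were -0.89, -0.89 and -0.81 (edgeR adjusted p = 0.078, 0.072 and 0.094). For CK666 72h -LIF2i minus Control +LIF2i it was -0.63 (SE 0.26, edgeR adjusted p = 0.087).

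Prickle3 (chrX:7657260-7668186, plus strand), an X-linked member, was at 12.9, 7.31 and 7.47 CPM in Control +LIF2i. It was at 2.07, 2.80 and 3.72 CPM in Control 72h -LIF2i and at 3.50, 1.64 and 2.46 CPM in CK666 72h -LIF2i. Every self-renewal library lay above every library without LIF2i. It fell on withdrawal by 1.63 (SE 0.37, edgeR adjusted p = 0.0067), and the CK666 group was 1.87 below self-renewal on the same scale (-1.87, SE 0.37, edgeR adjusted p = 0.0038). Of its exonic bases, 5.02% are shared with Plp2 on the opposite strand, and whether counting used strand is not given in the sources used here.

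**Figure D1:**
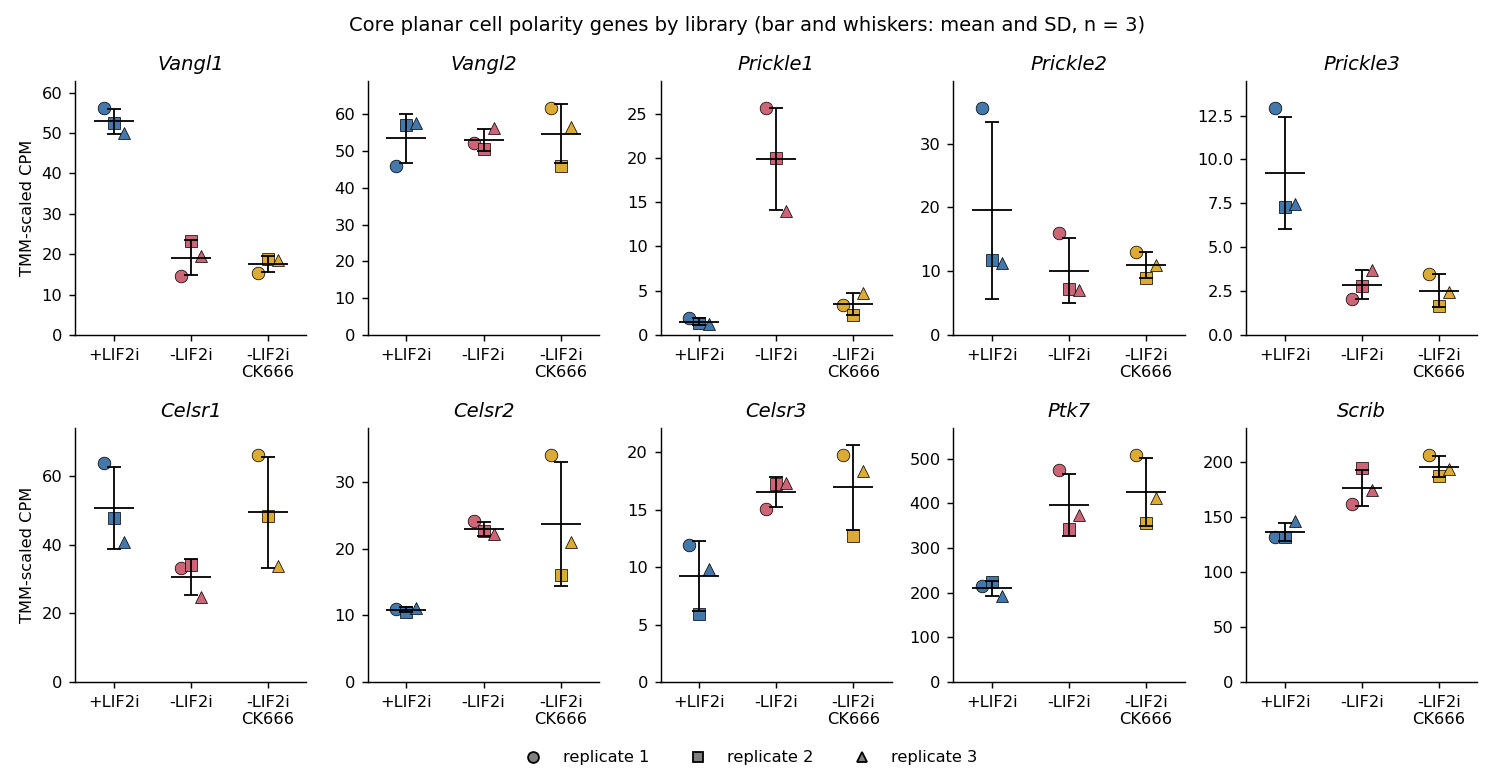
Level of each of the 10 genes in each library, in TMM-scaled CPM on linear axes that start at 0 and differ between genes. Points are libraries with a marker for each replicate number, and the bar with whiskers is the mean and SD of 3 libraries. Prickle1 is at 1.27 to 1.96 CPM with LIF2i, 14.0 to 25.6 without it and 2.32 to 4.80 with CK666.

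As a description, the make-up of the Prickle family differed between the groups in TPM, a level per transcript length. Prickle1 was chosen for its lower level with CK666. The shares and the sum with CK666 against the withdrawn control are therefore tied to that choice. Prickle1 was 5.00% ± 0.928 (SD, n = 3) of the Prickle sum in Control +LIF2i, 58.3% ± 4.86 in Control 72h -LIF2i and 21.6% ± 4.70 in CK666 72h -LIF2i. Prickle3 led in self-renewal with 55.5% ± 6.33, against 21.5% ± 8.81 and 29.5% ± 5.14 in the other groups. With CK666 the largest share was that of Prickle2, at 48.9% ± 3.90. The mean level of Prickle2 itself was 2.80 TPM with CK666 and 2.73 TPM in the withdrawn control. By CPM the Prickle1 shares were 5.64%, 60.6% and 20.5%, and Prickle2 rather than Prickle3 held the largest share in self-renewal, with 61.5% against 32.9%. The Prickle sum was 12.3 ± 8.12 TPM with LIF2i, 12.4 ± 4.71 TPM without it and 5.82 ± 1.77 TPM with CK666 (SD, n = 3).

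CELSR1, CELSR2 and CELSR3 are seven-pass cadherins with an adhesion receptor fold. Celsr1, the member best known from epithelia, fell on withdrawal, whereas Celsr2 and Celsr3, best known from neurons and ciliated cells, rose. Celsr1 (chr15:85898929-86033777, minus strand) was at 63.8, 47.6 and 40.7 CPM in Control +LIF2i and at 33.1, 34.1 and 24.6 CPM in Control 72h -LIF2i, with no overlap. With CK666 it was at 66.0, 48.2 and 33.9 CPM, a range that overlapped both other groups. Within each group replicate 3 was the lowest. The withdrawal fold change was -0.71 (SE 0.15, edgeR adjusted p = 0.0042, 3 of 3 pairs), and with no replicate block its adjusted p was 0.083. As a description, CK666 72h -LIF2i minus Control 72h -LIF2i gave 0.65 (SE 0.15), higher in 3 of 3 pairs. Against self-renewal the CK666 group differed by -0.06 (SE 0.15, edgeR adjusted p = 0.769), a value whose sign turned under a length correction (0.08) and in TPM (0.07).

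Celsr2 (chr3:108390851-108415552, minus strand) was at 11.0, 10.5 and 11.1 CPM in Control +LIF2i, at 24.1, 22.6 and 22.2 CPM in Control 72h -LIF2i and at 34.0, 16.0 and 20.9 CPM in CK666 72h -LIF2i. The spread within the first 2 groups was small, while the CK666 libraries spread to both sides of the withdrawn controls. It rose by 1.08 on withdrawal (SE 0.22, edgeR adjusted p = 0.0039) and by 1.07 from self-renewal to CK666 (SE 0.22, edgeR adjusted p = 0.0047).

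Celsr3 (chr9:108826320-108852969, plus strand) was at 12.0, 5.95 and 9.83 CPM in Control +LIF2i, at 15.1, 17.3 and 17.3 CPM in Control 72h -LIF2i and at 19.7, 12.7 and 18.4 CPM in CK666 72h -LIF2i. All self-renewal libraries lay below all others. The withdrawal rise was 0.90 (SE 0.24, edgeR adjusted p = 0.0136) and that from self-renewal to CK666 was 0.89 (SE 0.23, edgeR adjusted p = 0.0154). The 2 calls of Celsr3 were lost with no replicate block (adjusted p = 0.067 and 0.065) and under a length correction (0.70 with adjusted p = 0.149, and 0.79 with adjusted p = 0.107). The withdrawal call of Celsr3 was also lost without Control +LIF2i replicate 2 (0.71, adjusted p = 0.057) and without Control 72h -LIF2i replicate 2 (0.62, adjusted p = 0.077). The second call of Celsr3 was lost without CK666 replicate 1 or 3 (0.84 and 0.86, adjusted p = 0.063 and 0.064) and without Control +LIF2i replicate 2 or 3 (0.70 and 0.91, adjusted p = 0.059 and 0.055). In TPM, Celsr1 was 57.4% ± 4.01 (SD, n = 3) of the Celsr sum with LIF2i, 29.7% ± 2.79 without it and 45.6% ± 7.89 with CK666. The Celsr2 shares were 25.4% ± 7.82, 49.2% ± 5.03 and 32.7% ± 4.70. In CPM, which is not corrected for length, the Celsr1 shares were 71.3% ± 4.59, 43.5% ± 4.35 and 54.7% ± 8.18 and the Celsr2 shares 15.7% ± 2.75, 32.8% ± 2.08 and 25.9% ± 4.42. In the withdrawn control the mean share of Celsr2 was thus above that of Celsr1 in TPM and below it in CPM. There Celsr2-205, a processed transcript of 467 bases with 3 to 11 estimated counts, held 2.44 of the 7.40 TPM of Celsr2. The order in TPM thus rests in part on few counts.

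**Figure D2:**
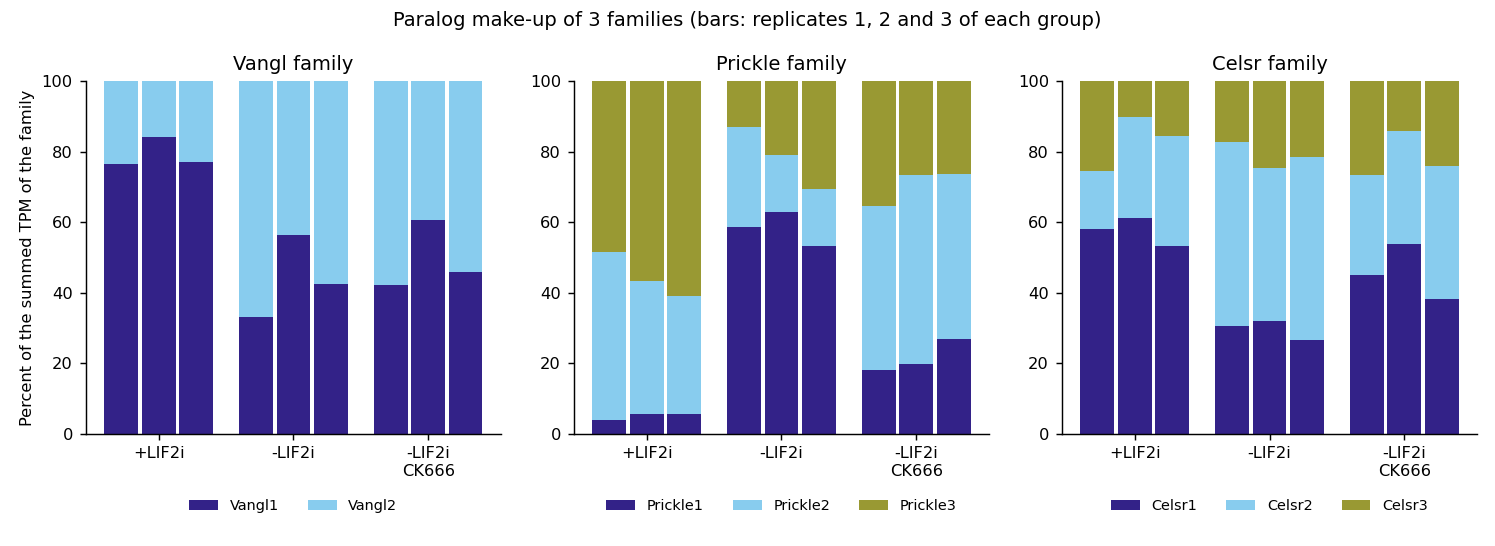
Percent of the summed TPM of the Vangl, Prickle and Celsr families held by each paralog. Each bar is 1 library, with replicates 1, 2 and 3 of a group side by side. The Prickle1 share is 3.94% to 5.61% with LIF2i, 53.2% to 62.9% without it and 18.1% to 27.0% with CK666.

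Ptk7 and Scrib were the most abundant of the 10 genes in both groups without LIF2i, and both rose on withdrawal. Ptk7 (chr17:46564471-46629504, minus strand) was at 215, 225 and 192 CPM in Control +LIF2i, at 475, 342 and 373 CPM in Control 72h -LIF2i and at 507, 356 and 412 CPM in CK666 72h -LIF2i. Both groups without LIF2i lay above self-renewal with no overlap, and they overlapped each other. It rose by 0.90 on withdrawal (SE 0.14, edgeR adjusted p = 0.00083) and by 1.00 from self-renewal to CK666 (SE 0.14, edgeR adjusted p = 0.00054).

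Scrib (chr15:76047158-76069784, minus strand) was at 132, 131 and 146 CPM in Control +LIF2i, at 162, 194 and 174 CPM in Control 72h -LIF2i and at 206, 187 and 194 CPM in CK666 72h -LIF2i. Self-renewal was lowest, with no overlap. The withdrawal rise was 0.37 (SE 0.12, edgeR adjusted p = 0.0287) and the rise to CK666 was 0.52 (SE 0.12, edgeR adjusted p = 0.0071). For Scrib the withdrawal call was lost with no replicate block (adjusted p = 0.105) and under a length correction (0.33, adjusted p = 0.102). It was also lost without replicate 2 or 3 of Control +LIF2i (0.34 and 0.43, adjusted p = 0.095 and 0.054) and without replicate 2 or 3 of Control 72h -LIF2i (0.27 and 0.41, adjusted p = 0.160 and 0.080). The Scrib call from self-renewal to CK666 was lost under the length correction (0.33, adjusted p = 0.110), in TPM (0.33, adjusted p = 0.174) and without replicate 2 or 3 of every group (0.51 and 0.58, adjusted p = 0.058 and 0.064).

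Of the 9 genes other than Prickle1, 8 passed the test on withdrawal, 4 higher and 4 lower. The background was high: 40.7% of all 14648 genes tested were called in that comparison, 21.1% higher and 19.7% lower. The median absolute log2 fold change was 0.90 over these 9 genes and 0.50 over all genes tested. From self-renewal to CK666, 6 of these 9 were called, 4 higher and 2 lower, beside 36.9% of all genes, 19.8% higher and 17.1% lower. The median absolute log2 fold change was 0.89 over the 9 genes and 0.47 over all. These 2 comparisons share the self-renewal libraries. On TPM with limma, the withdrawal calls of Prickle2, Celsr1, Celsr3 and Scrib were lost, and so were those of Celsr3 and Scrib for CK666 against self-renewal. Without replicate 1 of every group 8 and 6 of the 9 genes passed in the 2 comparisons, where 44.8% and 41.6% of all genes were called. Without replicate 2 of every group 5 and 4 passed, and without replicate 3, 4 and 4 passed, where the shares of all genes called fell to 25.3% and 22.5%, and to 20.7% and 16.1%. Celsr1 lost its withdrawal call without replicate 3 (-0.71, edgeR adjusted p = 0.051). Scrib lost its call for CK666 against self-renewal without replicate 2 (0.51, edgeR adjusted p = 0.058) and without replicate 3 (0.58, edgeR adjusted p = 0.064).

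For CK666 72h -LIF2i minus Control 72h -LIF2i, 2.05% of all genes were called, 1.15% higher and 0.894% lower. This share was 0% with no replicate block and ran from 0% to 12.3% when libraries were left out, with the highest value without replicate 1 of every group. The list was chosen with this comparison in view, so no count of the 10 genes that passed is read from it. As values, the 9 genes other than Prickle1 gave log2 fold changes of -0.11 for Vangl1 (SE 0.17), 0.04 for Vangl2 (SE 0.15), 0.24 for Prickle2 (SE 0.26) and -0.24 for Prickle3 (SE 0.37). Celsr1 gave 0.65 (SE 0.15), with a range of 0.46 to 0.77 over the alternatives, Ptk7 0.10 (SE 0.14) and Scrib 0.15 (SE 0.12), while Celsr2 and Celsr3 gave -0.00 (SE 0.21) and -0.01 (SE 0.23). Their median absolute value was 0.11, and that of all genes tested was 0.26. Samples of CK666 and control overlapped for each of these 9 genes, for Celsr1 only narrowly (33.9 CPM with CK666 against 34.1 CPM in the control). The share of all genes that overlapped was not counted, so the overlap is a description only.

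**Figure D3:**
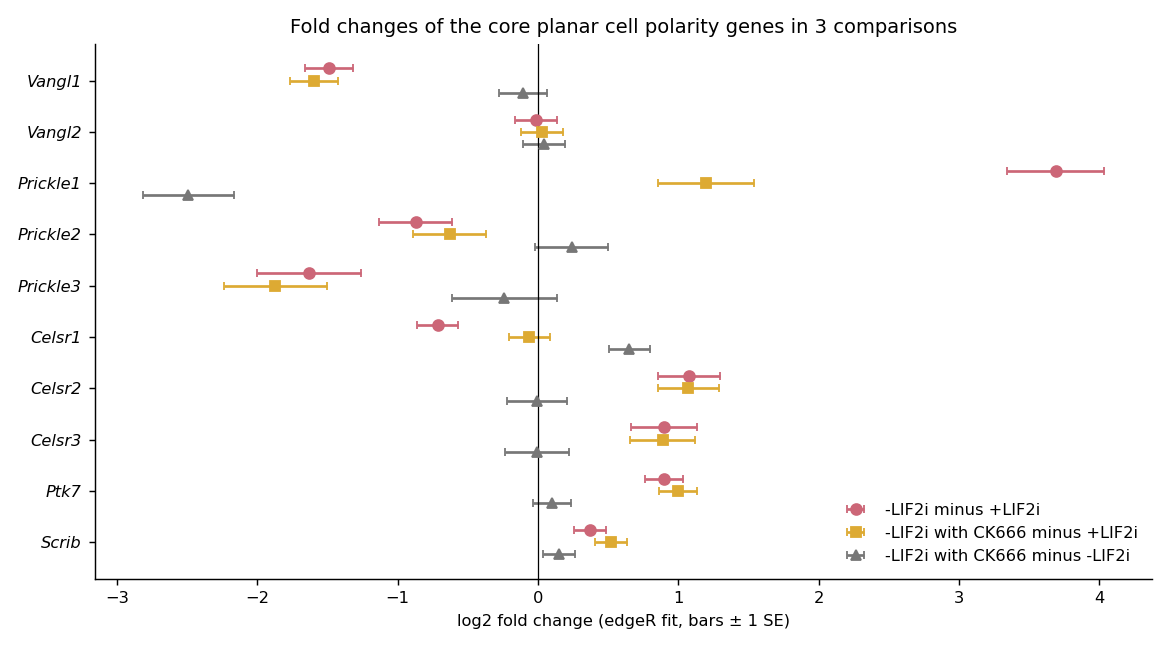
Log2 fold change of each of the 10 genes in 3 comparisons, from the edgeR fit with the replicate block. Points are estimates and bars are 1 SE to each side, with 3 libraries a group. Prickle1 is at 3.69 on withdrawal and at 1.20 for CK666 against self-renewal, while the markers of those 2 comparisons lie close together for Vangl1, Celsr2, Celsr3 and Ptk7.

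Levels can be ranked between genes only per length, in TPM. With LIF2i the order was Vangl1 (90.9), Ptk7 (72.5), Scrib (49.2), Vangl2 (23.7), Celsr1 (7.15), Prickle3 (6.48), Prickle2 (5.22), Celsr2 (2.98), Celsr3 (2.30) and Prickle1 (0.564). The ranges of neighbours in this order overlapped except between Scrib and Vangl2, Vangl2 and Celsr1, and Celsr3 and Prickle1. Of the Vangl1 value, the retained-intron transcript Vangl1-204 held 45.0 TPM and the processed transcript Vangl1-207 held 25.1 TPM. The first rank of Vangl1 thus rests on short transcripts not annotated as protein-coding. Without LIF2i the 4 highest were Ptk7 (141), Scrib (61.3), Vangl2 (27.6) and Vangl1 (22.8), and only the last pair of neighbours overlapped. The other 6 were at 2.42 to 7.40 TPM, with Prickle1 at 7.28 ± 2.89 (SD, n = 3), and each overlapped its neighbour in rank. With CK666 the same 4 genes led, with Ptk7 at 148, Scrib at 60.8, Vangl2 at 24.8 and Vangl1 at 23.8 TPM. Prickle1 was again the lowest, at 1.26 ± 0.454 TPM (SD, n = 3), and it overlapped its neighbour Prickle3 at 1.76 ± 0.794.

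Prickle1 and Prickle2 differed between groups also in which transcript held their reads. The deposited tables divide reads among transcripts by estimation and carry no error for that division, so the counts below have an unknown error of their own. Prickle1-201 starts at the outer start and Prickle1-202 at the inner one. Prickle1-202 had 0 estimated counts, after rounding, in all 3 Control +LIF2i libraries. It had 359, 385 and 230 in Control 72h -LIF2i and 0, 0 and 30 in CK666 72h -LIF2i. Prickle1-201 had 40, 26 and 21, then 172, 0 and 30, then 72, 41 and 56 in the same groups. Thus the inner transcript held 85.4% ± 16.4 (SD, n = 3) of the Prickle1 counts in the withdrawn control and 11.8% ± 20.4 with CK666. Its mean of 16.6 ± 3.84 CPM in the withdrawn control was at least 102-fold higher than self-renewal, with each self-renewal library set to the floor of 3 counts. Prickle1-202 and Prickle2-201 pass a filter on low counts only through the groups where they are high, so these values are a description, with no test. Of the 31-base stretches of each transcript, 200 in Prickle1-201 and 259 in Prickle1-202 are absent from the other.

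Prickle2 went the opposite way in position, toward its outermost start. Prickle2-201 had 0 estimated counts, after rounding, in all 3 Control +LIF2i libraries, 144, 95 and 112 in Control 72h -LIF2i and 200, 111 and 97 in CK666 72h -LIF2i. Transcripts from the inner starts, Prickle2-202, Prickle2-203 and Prickle2-204, together had 724, 224 and 187 with LIF2i, 189, 44 and 19 without it and 75, 48 and 99 with CK666. The outermost start held 65.7% ± 21.4 (SD, n = 3) of the Prickle2 counts in the withdrawn control and 64.0% ± 12.6 with CK666. In TPM the latter share was 46.7%. Against self-renewal at the floor, Prickle2-201 was at least 36.9-fold higher in the withdrawn control and at least 43.6-fold higher with CK666. Prickle2-201 holds 135 stretches of 31 bases found in no other Prickle2 transcript. A Vangl1 transcript, Vangl1-208, also had 0 estimated counts in all 3 Control +LIF2i libraries. It had 54, 87 and 9 in Control 72h -LIF2i and 72, 74 and 48 in CK666 72h -LIF2i. Against self-renewal at the floor, Vangl1-208 was at least 15.7-fold and 21.2-fold higher in these groups, again as a description.

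**Figure D4:**
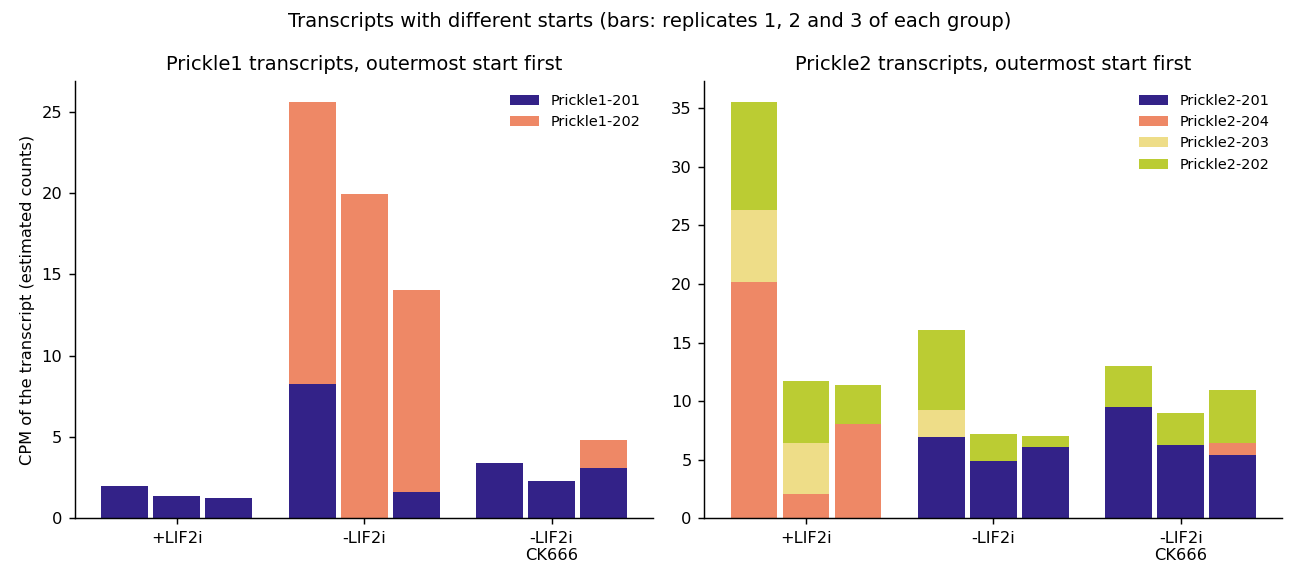
CPM of each Prickle1 and Prickle2 transcript, stacked, in every library, from the estimated counts. Replicates 1, 2 and 3 of a group stand side by side, and the outermost start is at the base of each bar. The inner Prickle1-202 fills most of the withdrawn control bars, and Prickle2-201 is at 0 after rounding in the 3 libraries with LIF2i.

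Other genes of the pathway were followed in a list of 45, of which 43 passed the filter (not Wnt5a or Fat4). A gene near 0 in 1 group that passed through another was more likely to differ. Only genes whose mean reached the level of the filter, 0.541 CPM, in both groups of a comparison were therefore counted. This choice was made after their values were seen. On withdrawal 16 of 38 such genes were called, 10 higher and 6 lower, beside 40% of all genes counted in this way. Without that restriction, and so with the genes near 0 in 1 group, the median log2 fold change was 0.14 over the 43 genes and 0.01 over all genes. From self-renewal to CK666, 14 of 39 were called, 10 higher and 4 lower, beside 36.1%. For CK666 72h -LIF2i minus Control 72h -LIF2i, edgeR called 0 of 41, beside 2.17% of all genes counted in this way. At an unadjusted p under 0.05 there were 13 of 41, beside 20.3%. Without the restriction on group means, DESeq2 called 2 of the 41 listed genes to which it gave an adjusted p, beside 8.06% of 13703 genes.

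Among Frizzled receptors and Dishevelled adaptors, the partners on the opposite cell side, Fzd3 rose by 1.31 on withdrawal (SE 0.27, edgeR adjusted p = 0.0045) and Fzd6 by 1.87 (SE 0.26, edgeR adjusted p = 0.00052). Against self-renewal the CK666 group was at 1.47 for Fzd3 and 1.20 for Fzd6 (edgeR adjusted p = 0.0030 and 0.0065). Dvl1 rose by 0.61 in both comparisons (edgeR adjusted p = 0.0053 and 0.0060), a call lost with no replicate block (adjusted p = 0.215 and 0.244). Dvl2 (-0.25, adjusted p = 0.169) and Dvl3 (0.03, adjusted p = 0.891) did not pass on withdrawal. Without Control 72h -LIF2i replicate 1, Dvl2 was at -0.39 (adjusted p = 0.043).

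Ror1, a WNT co-receptor, and Dchs1, a giant cadherin of the Fat and Dachsous module, were near the detection floor in self-renewal and passed the filter only through the groups without LIF2i, so their values are given with no test. Ror1 had 0, 2 and 14 counts in Control +LIF2i, 243, 110 and 104 in Control 72h -LIF2i and 96, 35 and 57 in CK666 72h -LIF2i. Dchs1 had 14, 4 and 2 counts in Control +LIF2i, 157, 41 and 99 in Control 72h -LIF2i and 185, 36 and 81 in CK666 72h -LIF2i. All libraries without LIF2i lay above all self-renewal libraries for both genes. Fjx1, a kinase-like regulator of the Fat and Dachsous module, rose by 3.08 on withdrawal from a mean of 2.02 CPM (SE 0.29, edgeR adjusted p = 6.0e-05) and by 2.41 from self-renewal to CK666 (edgeR adjusted p = 0.00025). Ror2, the paralog of Ror1, fell by 1.79 on withdrawal (SE 0.22, edgeR adjusted p = 0.00024) and was at -1.69 with CK666 (edgeR adjusted p = 0.00038). Csnk1e, a kinase of Dishevelled, was at -1.03 and -0.77 (edgeR adjusted p = 0.00011 and 0.00062). The GTPase gene Rhoa was at -0.73 in the CK666 group against self-renewal (SE 0.11, edgeR adjusted p = 0.00075), and its call was lost with no replicate block (adjusted p = 0.079), as was that of Csnk1e (0.059).
Wnt11, a WNT ligand of this pathway, fell by 2.00 on withdrawal (SE 0.67, edgeR adjusted p = 0.038) from a mean of 2.41 CPM. For Wnt11 the call was lost without any of 7 single libraries: Control +LIF2i replicate 2 (-1.27), Control 72h -LIF2i replicates 1, 2 and 3 (-2.18, -1.46 and -2.35) and CK666 replicates 1, 2 and 3 (-1.98, -1.93 and -1.92), with adjusted p from 0.054 to 0.176.

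The 5 genes whose pattern over the 9 libraries was most like that of Prickle1 were Slc27a2, Pphln1, Zfp946, Fam83h and Arrb1. Likeness was measured as the root mean square difference of log2 CPM after each gene was centred on its mean, over 9489 candidate genes with a median of 1.59. Slc27a2, an acyl-CoA synthetase gene, was closest, at 0.605. Its CPM values were 3.39, 7.16 and 6.07 in Control +LIF2i, 51.3, 37.5 and 54.2 in Control 72h -LIF2i and 18.9, 9.11 and 13.1 in CK666 72h -LIF2i. Pphln1 followed at 0.627, Zfp946 at 0.687, Fam83h at 0.692 and Arrb1, the beta-arrestin 1 gene, at 0.719. Each of the 5 was chosen for this pattern, so no test is given.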

How the data were processed

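Poly-A RNA of 9 cultures of 1 mouse stem cell line was sequenced. The authors' table of a library holds, per the file headers, transcript length, effective length (another value set per library), estimated counts that can be fractional, and TPM, which the authors scaled to the same total in each library after correcting for effective length. Per the submitters' processing notes, FastQC, cutadapt 1.8.1, kallisto and sleuth were used, with the builds GRCh38 and mm10 named without a role. The transcript release and strand setting are not given in the sources used here.

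Transcripts were matched by identifier to GENCODE M21 (GRCm38). A gene was found for 116640 of 119414 (97.7%), and 116073 of these had the same version and length. The 2774 others, with 0.895% to 1.08% of each library's counts, were left out. Estimated counts and TPM were summed per gene, and counts were rounded. Floors cover counting error only.

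Testing used edgeR 4.0.16 (R 4.3.3): robust quasi-likelihood test, TMM scaling, expression filter (14648 genes), all 9 libraries in 1 fit, replicate number as a block, 4 residual degrees of freedom, and Benjamini-Hochberg adjustment over all genes with a threshold of 0.05. CPM values are TMM-scaled. The study's text calls the replicates paired, and the deviations of same-numbered libraries correlated at 0.30 to 0.65. Those of different-numbered libraries correlated at -0.53 to 0.29. Among these, pairs of replicates 2 and 3 were at 0.21 to 0.29 and every pair with replicate 1 was negative. If the cultures were not separate, p-values measure only technical spread. Alternatives were no block, DESeq2 1.42.0, its size factors, no filter, an effective-length offset, limma 3.58.1 on log2(TPM + 0.5) and leaving out libraries. The code was tested on simulated data.

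The 10 genes, the pathway and marker lists and the tests were chosen with earlier results of these data known. Named pathway genes are, for withdrawal and for CK666 against self-renewal, the 3 called genes higher and the 3 lower with the largest change, with Fzd3, Fzd6 and Dvl1 to Dvl3. The 5 genes most like Prickle1 were taken from non-member protein-coding genes whose mean log2 CPM (prior count 2) reached 3. RefSeq promoter windows were given for 7 of the 10 genes. Vangl1, Celsr1 and Scrib had no entry.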

Additional observations from a re-analysis of the deposited data

How the results depend on the processing

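The counts of core genes in this paragraph include Prickle1, which was chosen for its level with CK666, and are read for no support. With no replicate block, 3509 genes (24%), 5 of the 10 core genes and 10 pathway genes were called on withdrawal, 0 genes and 0 core genes for CK666 against its control, and 2966 genes (20.2%) and 8 pathway genes for CK666 against self-renewal. On TPM with limma, 5 core genes were called on withdrawal beside 33.9% of all genes, 45 genes for CK666 against its control, and 4 core genes for CK666 against self-renewal beside 29.5% of all genes. For CK666 against its control, DESeq2 called 1104 genes (8.06%), 2 core genes and 2 pathway genes, the fit with no filter 565 (2.5% of 22634 tested), 2 and 1, and the length correction 147 genes (1%). Leaving out libraries gave, on withdrawal, 3099 to 6588 genes (20.7% to 44.8%), 5 to 9 core genes and 11 to 21 pathway genes. For CK666 against its control it gave 0 to 1811 (0% to 12.3%), 0 to 2 and 0 to 6, and for CK666 against self-renewal 2413 to 6129 (16.1% to 41.6%), 4 to 7 and 7 to 22. The cause of these differences was not tested, except that leaving out libraries also leaves fewer samples.

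On withdrawal Vangl1, Prickle3, Celsr2 and Ptk7 kept their direction and their call in all 18 alternatives. The sign of small values turned. For Vangl2 on withdrawal it was positive with DESeq2 (0.0038), with no filter (0.0033), with the length correction (0.20) and in TPM (0.22), and it ran from -0.14 to 0.14 when libraries were left out. For Vangl2 under CK666 against self-renewal that range was -0.16 to 0.18. Celsr1 in that comparison gave 0.079 with the length correction, 0.073 in TPM and -0.18 to 0.035 when libraries were left out. Dvl3 ran from -0.11 to 0.23 on withdrawal and from -0.22 to 0.078 under CK666 against self-renewal. The same 5 genes were most like Prickle1 with a prior count of 0.5. At this depth Prickle1 in self-renewal rests on 21 to 40 counts a library.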

Other observations

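Pphln1, second among the genes most like Prickle1, is also its neighbour on the chromosome: it lies at chr15:93398350-93491510 on the plus strand, and its end is 7604 bases from the facing end of Prickle1. Its CPM values were 32.1, 27.9 and 31.1 in Control +LIF2i, 152, 202 and 141 in Control 72h -LIF2i and 84.6, 31.2 and 48.2 in CK666 72h -LIF2i, with no overlap between the withdrawn control and either other group. Pphln1 encodes periphilin, a nuclear protein. Its log2 fold changes were 2.46 (SE 0.30) on withdrawal and -1.67 (SE 0.30) for CK666 against its control.

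The next genes on that side were looked at after these values were seen, and no test is given for them. Zcrb1, 100.8 kb from Prickle1, gave 1.06 (SE 0.20) on withdrawal and -0.56 (SE 0.20) for CK666 against its control. Yaf2, at 162.2 kb, gave 1.74 (SE 0.17) and -0.07 (SE 0.16). Gxylt1, at 223.9 kb, gave -0.13 (SE 0.13) and -0.33 (SE 0.14). So Yaf2 was higher in both groups without LIF2i, at 23.7 ± 1.96 CPM (SD, n = 3) in the withdrawn control and 22.8 ± 3.51 CPM with CK666, against 7.06 ± 0.821 CPM in self-renewal.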
